A study of Mus musculus with 2 samples.

Results

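Transcripts of the NF-kB subunits and of IkB-family and feedback genes were examined in the back skin of mice aged 10 days. The genes were 5 DNA-binding subunits (Rela, Rel, Relb, Nfkb1 and Nfkb2) and 5 others, chosen by name. The 5 others are genes of the IkB family (Nfkbia, Nfkbib, Nfkbie and Nfkbiz) and Tnfaip3, which encodes A20. Every probe set whose platform gene symbol was one of these 10 was taken. That gave 14 probe sets for 9 genes, of 12393 named genes in all. Nfkb1 was not analysed here.

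The transgenic mice expressed in keratinocytes an aryl hydrocarbon receptor (AhR) that is active without ligand. The title of their sample names K14, and the keratin 14 promoter is active in basal keratinocytes. The mice they were compared with were wild-type littermates without the transgene. Biotin-labelled total RNA of whole back skin was hybridised to 1 array per genotype. How many animals contributed to an array is not in the labels. Neither genotype has a replicate and nothing could be tested, so each ratio below compares these 2 arrays only. Whole skin mixes cell types, and in such a sample a smaller number of cells of a type cannot be told apart from less RNA per cell.

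NF-kB is a family of dimeric transcription factors built from the proteins RelA, c-Rel, RelB, p50 and p52. In resting cells inhibitory IkB proteins hold the dimers in the cytoplasm. Cytokine and microbial receptors activate the IKK kinases, which mark IkB for destruction and free the dimers to enter the nucleus. The genes for IkBalpha and for the ubiquitin-editing enzyme A20 are themselves NF-kB targets, so their products end the response. In epidermis the pathway takes part in barrier inflammation and keratinocyte survival, and AhR is known to bind RelA and RelB.

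The promoters of 5 of the genes are shown because binding of NF-kB to such sequences is how the feedback genes are known to be regulated. The other 2 genes with an entry, Rel and Nfkbie, are given by counts. Each line holds the 250 bases before a transcription start, from RefSeq on the mouse assembly GRCm38.p6, 5′ to 3′ on the strand of the gene. Capitals mark matches, on either strand, to the NF-kB type patterns GGGNNTTTC and GGGNNTTCC, in which N is any base. Matches to the patterns may overlap, and an overlapping run counts as 1 stretch.
Nfkbia promoter, chr12:55492648-55492897, minus strand: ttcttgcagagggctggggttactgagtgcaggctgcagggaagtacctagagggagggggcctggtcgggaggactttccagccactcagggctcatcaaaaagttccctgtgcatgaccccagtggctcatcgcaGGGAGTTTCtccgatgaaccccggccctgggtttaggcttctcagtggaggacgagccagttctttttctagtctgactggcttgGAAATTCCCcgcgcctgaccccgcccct
Tnfaip3 promoter, chr10:19015411-19015660, minus strand: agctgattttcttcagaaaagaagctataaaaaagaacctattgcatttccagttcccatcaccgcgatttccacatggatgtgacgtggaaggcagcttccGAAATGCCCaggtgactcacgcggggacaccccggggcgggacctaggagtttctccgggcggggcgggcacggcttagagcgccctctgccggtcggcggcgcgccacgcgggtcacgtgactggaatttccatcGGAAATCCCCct
Nfkb2 promoter, chr19:46304487-46304736, plus strand: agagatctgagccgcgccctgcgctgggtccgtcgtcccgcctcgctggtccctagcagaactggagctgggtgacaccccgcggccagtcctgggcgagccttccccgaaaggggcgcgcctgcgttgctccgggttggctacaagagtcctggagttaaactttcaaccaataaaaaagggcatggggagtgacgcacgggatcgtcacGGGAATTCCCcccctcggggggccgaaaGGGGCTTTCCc
Rela promoter, chr19:5637291-5637540, plus strand: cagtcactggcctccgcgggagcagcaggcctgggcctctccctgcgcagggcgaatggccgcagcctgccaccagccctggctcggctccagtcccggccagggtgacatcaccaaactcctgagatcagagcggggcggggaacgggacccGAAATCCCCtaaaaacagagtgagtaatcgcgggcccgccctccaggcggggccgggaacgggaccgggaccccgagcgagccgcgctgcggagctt
Nfkbib promoter, chr7:28766645-28766894, minus strand: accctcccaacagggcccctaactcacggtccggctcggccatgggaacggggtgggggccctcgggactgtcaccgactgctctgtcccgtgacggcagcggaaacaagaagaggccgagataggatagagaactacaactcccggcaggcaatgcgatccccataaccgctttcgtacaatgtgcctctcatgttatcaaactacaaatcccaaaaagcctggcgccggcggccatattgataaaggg

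The Nfkbia, Tnfaip3 and Nfkb2 windows each held 2 separate stretches that matched, the Rela window held 1 and the Nfkbib window none. Over the 7 genes with an entry there were 10 windows, and 8 of them, from 6 genes, held a match. Of all 32851 promoter windows of the same length, 8.14% held either pattern, 3.72% held GGGNNTTTC and 4.98% held GGGNNTTCC. Rel and Nfkbie had 1 stretch in their window. The second and the third Nfkb2 windows had 1 stretch each, and the second Tnfaip3 window, at a start farther downstream, had none. The AhR core letters GCGTG, searched on both strands, occurred in 6 of the 10 windows, from the genes Rel, Nfkb2, Nfkbie and Tnfaip3. They occurred in 28.2% of all windows. The patterns were settled on with these promoters in view, and a match describes letters only.

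Each array gave 22690 probe set signals, deposited on a linear scale after scaling, with medians of 49.1 in transgenic skin and 50.7 in wild-type skin. A signal was raised to a floor of 34.7, the 40th percentile of both arrays, before transgenic was divided by wild type and log2 taken. A ratio with 1 array below the floor is a bound, printed as at least or at most. A gene counted as measured when its brightest probe set exceeded the floor on at least 1 array, which held for 8894 genes with a median log2 ratio of -0.05. As a technical measure, probe sets of the same gene differed in log2 ratio with an SD of 0.26 over 2535 genes. The defining keratinocyte genes Krt14 (3328 in transgenic skin, 1987 in wild-type skin) and Krt10 (3044 in transgenic skin, 1808 in wild-type skin) were bright on both. Krt14 and Krt10 encode the major keratins of basal and suprabasal epidermis.

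Of the 9 genes, 5 were measured (Rela, Nfkb2, Nfkbia, Nfkbib and Nfkbiz) and each read higher in transgenic skin by its brightest probe set. The differences were small. None of the 5 was at least 2-fold higher, where 2.27% of all measured genes were, and none was at least 2-fold lower, where 1.09% were. Nfkb2 and Nfkbiz were at least 1.5-fold higher, as were 6.80% of measured genes, and none was at least 1.5-fold lower, against 6.38%. The Nfkb2 value rests on the choice between probe sets of opposite direction. Without Nfkb2, or by its other probe set, 1 member, Nfkbiz, was at least 1.5-fold higher, and the 4 other measured members all had a ratio above 0. The 5 log2 ratios ran from 0.24 to 0.96 with a median of 0.36, and 43.6% of all measured genes had a ratio above 0. Rel, Relb, Nfkbie and Tnfaip3 lay below the floor on both arrays. The medians and counts describe genes that passed the floor, not all 9, and Nfkb2 passed by that probe set in transgenic skin only.

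**Figure D1:**
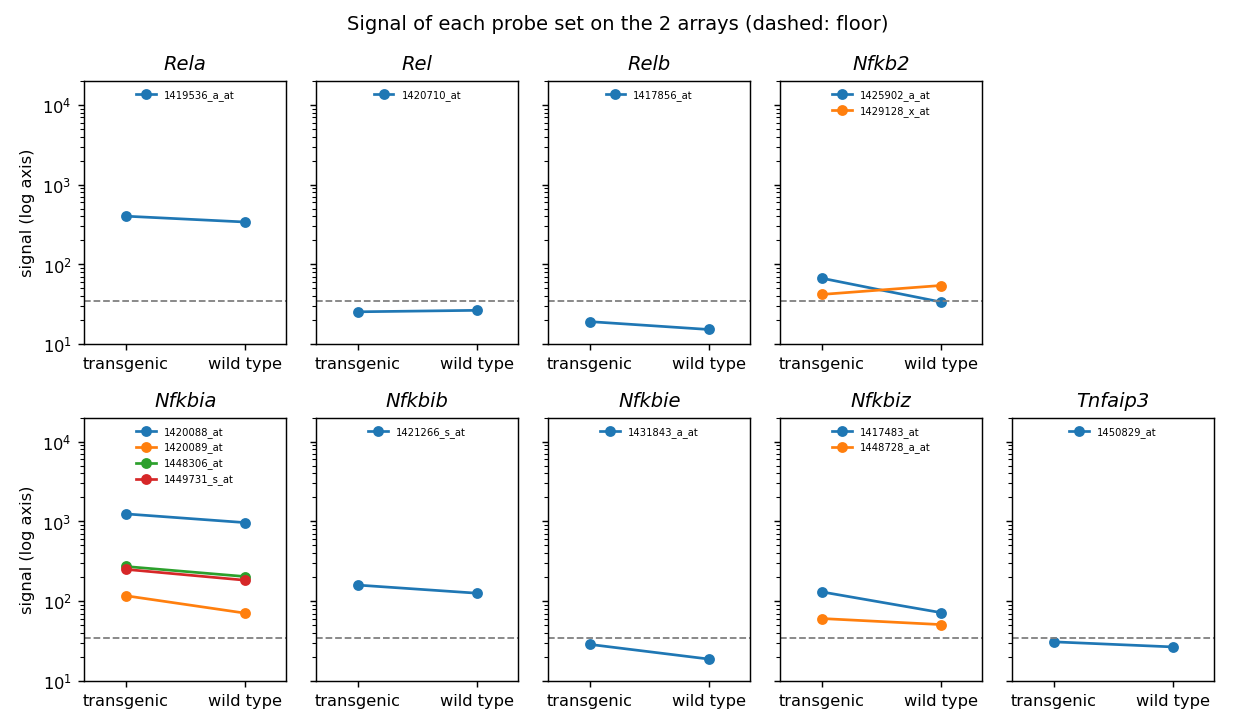
Signal of every probe set of the 9 genes in transgenic skin (left point) and wild-type skin (right point), on a log axis, with 1 line per probe set and the floor of 34.7 dashed. All 4 Nfkbia lines and both Nfkbiz lines are higher on the transgenic side, the Nfkb2 lines cross, and Rel, Relb, Nfkbie and Tnfaip3 lie under the floor.

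Rela encodes RelA (p65), the transactivating subunit of the most common NF-kB dimer. Its single probe set read 404 in transgenic skin and 341 in wild-type skin. The log2 ratio was 0.24, 1.18-fold higher, which is less than the SD of 0.26 between probe sets of a gene. Of the other measured genes, 80.3% had a lower ratio.

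Nfkb2 encodes p100, the precursor of p52, which serves the alternative arm of the pathway with RelB. Its probe sets disagreed on the direction. Probe set 1425902_a_at read 67.3 in transgenic skin and 33.9, just below the floor, in wild-type skin, at least 1.94-fold higher (log2 ratio at least 0.96). Probe set 1429128_x_at read 42.1 in transgenic skin and 54.5 in wild-type skin, a log2 ratio of -0.37. The letter x in its name marks probes that can bind related transcripts, and both probe sets were dim. The difference between them exceeds the SD of 0.26, and no direction is given for Nfkb2.

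Rel, the gene of c-Rel, a subunit best known in lymphocytes and myeloid cells, read 25.5 in transgenic skin and 26.6 in wild-type skin. Relb, the gene of RelB, partner of p52, read 19.2 in transgenic skin and 15.3 in wild-type skin. Both stayed below the floor on each array, so no ratio was formed and differences of this size could not be resolved from the dim end of the arrays.

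Nfkbia encodes IkBalpha, the inhibitor that is resynthesised fastest after NF-kB is activated, and its promoter above holds 2 of the matched stretches. All 4 of its probe sets were above the floor on both arrays and higher on the transgenic one. Probe set 1420088_at read 1244 in transgenic skin and 968 in wild-type skin, a log2 ratio of 0.36 or 1.28-fold higher. Probe set 1448306_at read 272.5 against 203.9 in wild type, a log2 ratio of 0.42. Probe set 1449731_s_at read 251 against 183 in wild type, a ratio of 0.45 on the log2 scale. The dimmest, 1420089_at, had the largest ratio, 0.72, with 117 in transgenic skin and 70.9 in wild-type skin. The mean of the 4 log2 ratios was 0.49 with an SD of 0.16 between probe sets, which share the same 2 RNA samples and are not replicates of a genotype. No probe set of Nfkbia reached 2-fold, and 1 of the 4 exceeded 1.5-fold. By the brightest probe set, 86.7% of the other measured genes had a lower ratio.

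Nfkbib encodes IkBbeta, an inhibitor that is degraded and restored more slowly than IkBalpha, and its promoter window held no matched stretch. It read 159 in transgenic skin and 126 in wild-type skin, a log2 ratio of 0.34 or 1.26-fold higher. The ratio lay close to the 0.36 of the brightest Nfkbia probe set and below the mean of 0.49 over the Nfkbia probe sets. Nfkbib rests on 1 probe set, which carries a letter suffix. Of the other measured genes, 85.7% had a lower ratio than Nfkbib.

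Nfkbiz encodes IkBzeta, a nuclear member of the IkB family that acts with p50 on a secondary set of target genes and is induced in keratinocytes by interleukin-1 and interleukin-17. Probe set 1417483_at read 131 in transgenic skin and 72.0 in wild-type skin, 1.82-fold higher with a log2 ratio of 0.86. Of the other measured genes, 96.8% had a lower ratio. Probe set 1448728_a_at, the dimmer of the pair, read 60.6 in transgenic skin and 50.9 in wild-type skin, a log2 ratio of 0.25. Both were higher in transgenic skin, but they differed by more than the SD of 0.26 between probe sets of a gene, and the second did not reach 1.5-fold.

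Nfkbie and Tnfaip3 lay below the floor on both arrays. Nfkbie, the gene of IkBepsilon, an inhibitor that acts with delay, read 28.7 in transgenic skin and 18.8 in wild-type skin. Tnfaip3, the gene of A20, read 30.9 in transgenic skin and 26.7 in wild-type skin. Whether the transcript of either feedback gene differed was not detectable at these signals. Without the floor, 12 of the 14 probe sets read higher in transgenic skin, the exceptions being Rel and 1429128_x_at of Nfkb2. Of the 14, 4 are of Nfkbia and 4 others lay below the floor on both arrays. The share over all probe sets was not computed, so no direction is read from this count.

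**Figure D2:**
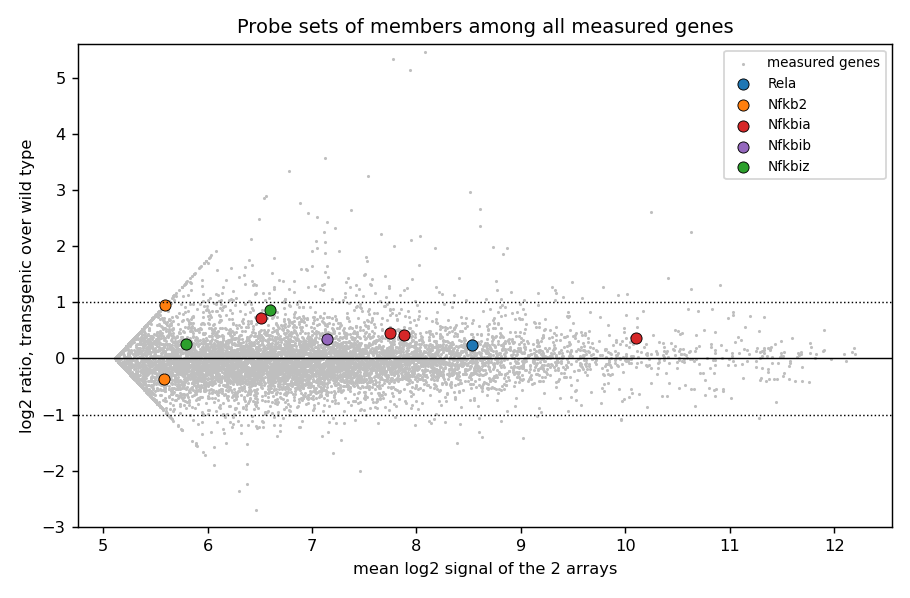
Log2 ratio of transgenic over wild type against the mean log2 signal of both arrays, for all measured genes (grey, brightest probe set each) and for the 10 probe sets of Rela, Nfkb2, Nfkbia, Nfkbib and Nfkbiz that exceeded the floor (coloured). Dotted lines mark 2-fold. Of the 10 coloured points, 9 lie above 0 and none beyond the dotted lines. Of the 10, 4 are of Nfkbia. The higher Nfkb2 point passed the floor in transgenic skin only, so its ratio had to be above 0. The share above 0 over all probe sets was not computed, so no direction is read from this count. The slanted edges on the left come from the floor.

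Other regulators of the same kind differed little. Of 20 further IkB-family and feedback genes with a probe set, 17 were measured, and none was at least 2-fold higher or lower. The median of these 17 was 0.16, and 13 had a ratio above 0, against 43.6% of all measured genes. Over the 15 of the 17 above the floor in both samples, 11 had a ratio above 0. The highest was Commd1, whose product promotes removal of RelA, with 239 in transgenic skin and 133 in wild-type skin (log2 ratio 0.85). Its other probe set went the other way, at -0.15. Birc3, a ubiquitin ligase gene that is an NF-kB target, read 100.1 in transgenic skin and 56.9 in wild-type skin (0.81), with a second probe set below the floor. Otulin, a linear-ubiquitin hydrolase, followed at 0.44. Bcl3, a nuclear IkB protein that binds p50 and p52, read 43.3 in transgenic skin and 17.2, below the floor, in wild-type skin (at least 0.32). It was the 1 gene of the list at least 2-fold higher at a floor of the 20th percentile, where the share of all genes was not computed. The lowest were Rnf114 (-0.21), Tank, an adaptor that binds TRAF proteins (-0.17), and Birc2 (-0.08). The 4 probe sets of Rnf114 disagreed, from -0.27 to 0.17.

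The kinases that free NF-kB lay near the level of all genes. Of 13 genes of the IKK complex and the kinases above it with a probe set, 12 were measured, 8 of them with a ratio below 0, as for 56.4% of all measured genes. Their median was -0.09, against -0.05 over all measured genes. None was at least 2-fold higher or lower. Irak1, a kinase of interleukin-1 and Toll-like receptors, was highest at 0.63 by its brightest probe set (76.8 in transgenic skin, 49.7 in wild-type skin), while another of its 4 probe sets gave -0.50. Ripk4, a kinase needed for epidermal differentiation, was at 0.38 and Map3k3 at 0.14. The lowest were Tab3, a subunit of the TAK1 complex (-0.58), Map3k7, which encodes TAK1 itself (-0.38), and Ikbkb, the IKKbeta gene. Ikbkb read 135 in transgenic skin and 175 in wild-type skin (-0.38), and its measured probe sets were all below 0. Those of Map3k7 ran from -0.38 to 0.74.

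Receptors and adaptors leaned to the transgenic side. Of 33 with a probe set, 28 were measured and 23 of these had a ratio above 0, with a median of 0.28. Over all measured genes, 43.6% had a ratio above 0 and 2.27% were at least 2-fold higher. Of the 28, 4 passed the floor in transgenic skin only and 3 in wild-type skin only, and 19 of the other 21 had a ratio above 0. Il17rc, a subunit of the interleukin-17 receptor, was the only one at least 2-fold higher, with 332.5 in transgenic skin and 137 in wild-type skin (2.43-fold), and none was at least 2-fold lower. Its probe set carries a letter suffix, so the count was 0 without such probe sets, and it was 3 at a floor of the 20th percentile. The share of all genes past 2-fold was not computed at that floor. Cd14, a receptor for bacterial lipopolysaccharide, was at 0.83 and Myd88, the adaptor of interleukin-1 and Toll-like receptors, at 0.71 (208 in transgenic skin, 127 in wild-type skin). The lowest were Edaradd, the adaptor of the ectodysplasin receptor of hair follicles (at most -0.87), Tnfrsf13c, a B cell receptor of the TNF family (at most -0.74), and Traf5 (-0.35). Cd14 is also in the macrophage list below.

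Ligands of the pathway were dim, with 7 of 14 measured, 3 of these in transgenic skin only. The interleukin-1 family genes Il33 and Il18, both released as alarm cytokines by epidermis, were the ones at least 2-fold higher, as were 2.27% of all measured genes. Il33 read 98.3 in transgenic skin and 20.7, below the floor, in wild-type skin, at least 2.83-fold higher. Il18 read 291 in transgenic skin and 130 in wild-type skin, 2.24-fold higher, and Il1b had a log2 ratio of 0.61. The lowest were Eda, the ectodysplasin gene (-0.47), and the receptor antagonist gene Il1rn (-0.09), whose probe sets ran from -0.29 to 0.57. Il17a was at least 0.37 from a dim probe set (44.9 in transgenic skin, 33.6 in wild-type skin). Tnf and Ltb were among the 7 below the floor.

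Of 49 listed NF-kB target genes with a probe set, 29 were measured and 25 of these had a ratio above 0, with a median of 0.39. Over all measured genes, 43.6% had a ratio above 0 and 2.27% were at least 2-fold higher. Of the 29, 7 passed the floor in transgenic skin only, so their ratio had to be above 0. Over the other 22, 18 had a ratio above 0, with a median of 0.45, and 2 were at least 2-fold higher. Among the 29, 4 exceeded 2-fold on the transgenic side, the bounds of Ccl20 and Lcn2 included, and none on the wild-type side. Ccl20, a chemokine for Langerhans cell precursors and T cells, read 124 in transgenic skin and 8.3 in wild-type skin, at least 3.56-fold higher. Lcn2, an iron-sequestering defence protein that IkBzeta is known to regulate, read 107 in transgenic skin and 7.6 in wild-type skin, at least 3.07-fold higher. The chemokine gene Cxcl16 was 2.47-fold higher (139 in transgenic skin, 56.3 in wild-type skin) and Saa3, an acute-phase gene, 2.06-fold. With the floor at the 60th percentile none of the target genes was at least 2-fold higher, while at a floor of the 20th percentile 9 were, and 1 (Csf3, 9.4 in transgenic skin and 27.5 in wild-type skin) was at least 2-fold lower. The apoptosis inhibitor gene Xiap (-0.39), Tnfaip8 (-0.18) and Bcl2l1 (-0.16, with 0.03 by another probe set) were lowest. The remaining 20 targets, Cxcl1, Cxcl2, Il6 and Ptgs2 among them, lay below the floor on both arrays.

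**Figure D3:**
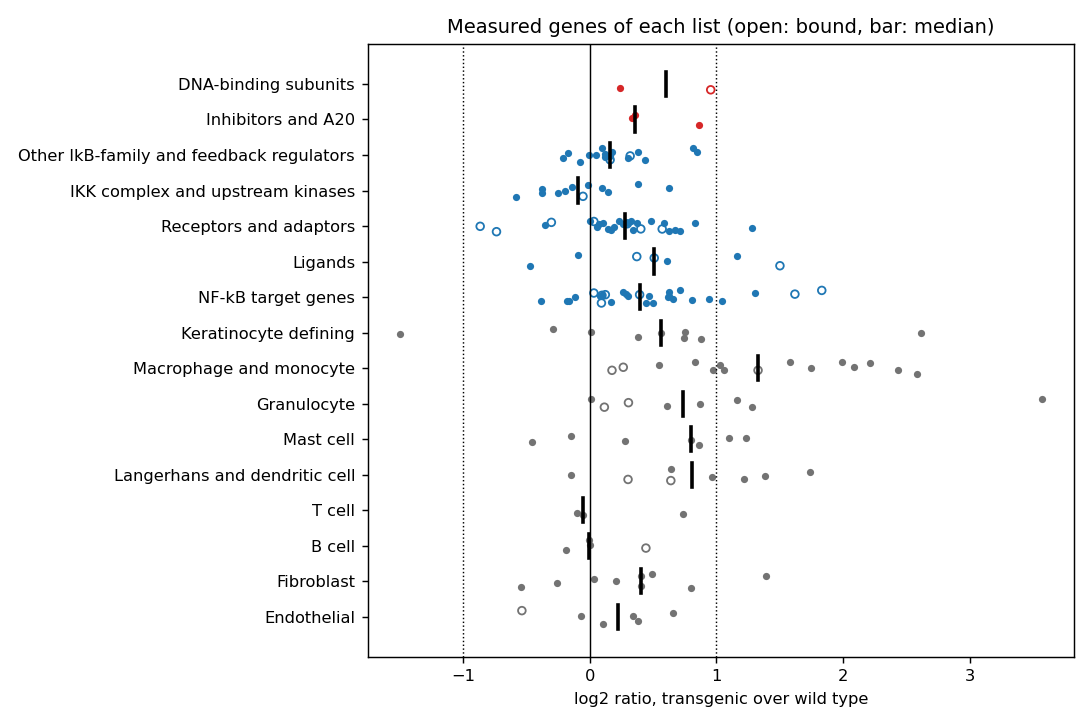
Log2 ratio of transgenic over wild type for each measured gene of the NF-kB members (red), the other pathway lists (blue) and the cell type marker lists (grey), with bounds as open circles and the median of each list as a bar. Dotted lines mark 2-fold. The kinase list has its median at -0.09, close to that of all genes, and the macrophage list has the highest median, 1.33. The lists of subunits, inhibitors (IkB family and A20), receptors, ligands and targets have medians above that of the kinase list. The subunit median is of Rela and Nfkb2 only, and the Nfkb2 probe sets disagree on the direction. Over the 4 ligands above the floor on both arrays the median is 0.26, with 2 above 0.

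The median log2 ratios of several leukocyte marker lists were also above 0, and which cells gave the RNA was not tested. All 15 measured macrophage and monocyte genes, of 17 with a probe set, had a ratio above 0, against 43.6% of all measured genes. Of the 15, 10 were at least 2-fold higher, against 2.27% of all measured genes. Of the 15, 3 passed the floor in transgenic skin only, and 9 of the other 12 were at least 2-fold higher. The summed signal of the 17 was 3403 in transgenic skin and 1112 in wild-type skin. C1qa was highest (2.59) and Fcgr1 lowest (at least 0.18), with Itgam and Aif1 below the floor. Granulocyte genes had a median of 0.74 over 8 of 10 (1.16 at a floor of the 20th percentile; summed signal 1898 in transgenic skin, 746 in wild-type skin), from S100a9 (3.57) to Mpo (0.01), with Elane and Cxcr2 below the floor. S100a8 (860 in transgenic skin, 384.5 in wild-type skin) and S100a9 (481 in transgenic skin, 40.4 in wild-type skin) made up most of both sums. The sums therefore describe mainly these 2 genes, and which cells of the skin expressed them was not tested. Of the 8, 2 (Csf3r and Camp) passed the floor in transgenic skin only. Mast cell genes had a median of 0.80 over 7 of 9 (0.32 with a pseudocount in place of the floor; summed signal 991 in transgenic skin, 612 in wild-type skin), from Mcpt4 (1.23) to Kit (-0.46), with Fcer1a and Hdc below the floor. Ms4a2 was also below 0, at -0.15. For Langerhans and dendritic cell genes the median was 0.80 over 8 of 11 (0.47 without suffixed probe sets; summed signal 3019 in transgenic skin, 1488 in wild-type skin), from H2-Ab1 (1.74) to Zbtb46 (-0.15), with Cd207, Flt3 and Ccr7 below the floor. The 3 genes of this list at least 2-fold higher were H2-Aa, H2-Ab1 and Cd74. Of the 8, 2 (Itgax and Xcr1) passed the floor in transgenic skin only.

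The keratinocyte list itself had a median of 0.56 over 9 genes (19049 in transgenic skin, 11691 in wild-type skin), from Krt1 (2.61) to Ivl (-1.50). Fibroblast genes had a median of 0.40 over 9 (10102 in transgenic skin, 10354 in wild-type skin) and endothelial genes of 0.22 over 6 of 8 (449 in transgenic skin, 383 in wild-type skin). T cell (-0.05 over 3 of 10) and B cell (0.00 over 4 of 7) medians lay near 0. The CD3 chain genes, Cd4, Cd8a and Cd8b1 lay below the floor on both arrays. The part of leukocytes and of keratinocytes in the ratios of Nfkbia, Nfkbib, Nfkbiz and Rela was not tested.

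**Figure D4:**
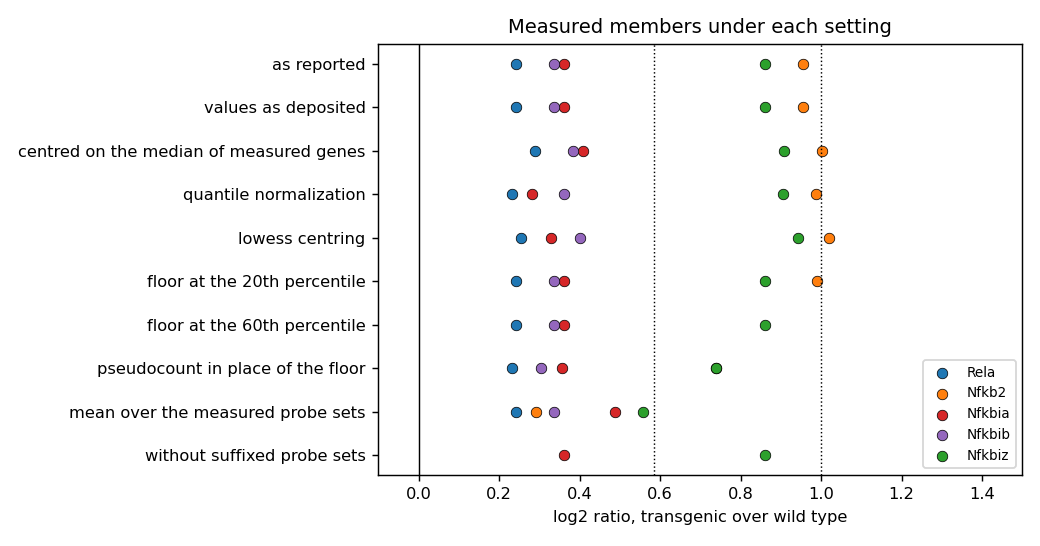
Log2 ratio of transgenic over wild type for Rela, Nfkb2, Nfkbia, Nfkbib and Nfkbiz under the reported setting (top) and 9 others. Dotted lines mark 1.5-fold and 2-fold. Every plotted ratio lies above 0, Rela, Nfkbib and Nfkbia stay under 1.5-fold, and Nfkb2 spans 0.29 to 1.02. The 0.29 is the mean over the Nfkb2 probe sets. Its probe set 1429128_x_at alone, at -0.37, is not plotted, so the points do not settle the direction of Nfkb2. A missing point means that the gene was not measured there.

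Across these settings Rela ran from 0.23 to 0.29, Nfkbib from 0.30 to 0.40, Nfkbia from 0.28 to 0.49 and Nfkbiz from 0.56 to 0.94 in log2 ratio, wherever the gene was measured. When the measured probe sets of a gene were averaged, neither Nfkb2 (0.29) nor Nfkbiz (0.56) was at least 1.5-fold higher.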

How the data were processed

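Biotin-labelled total RNA from back skin was measured on 1-colour oligonucleotide arrays, 1 per genotype, per the labels. Genotype came from the source names. The deposited intensity values are linear and 1 per probe set. Their 2% trimmed mean was 100.03 on both arrays, so the authors had scaled them before deposit. Their software was not given in the sources used here.

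Of 22690 probe sets, 64 were controls, 20380 had 1 gene in the platform annotation, 691 several and 1555 none. Only those with 1 gene were named, with symbols updated through the gene identifier to GRCm38.p6. Signals were rescaled to equal 2% trimmed means, raised to the floor (40th percentile) and put on the log2 scale. A gene took the brightest of its probe sets, by the sum over both arrays. With 1 array per group there is no error, test or p-value, and precision is limited by the number of arrays.

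The genes named are all members, the 3 highest and 3 lowest of each pathway list and those past 2-fold, and the defining, highest and lowest markers. For lymphocyte, fibroblast and endothelial lists the highest and lowest genes are not spelled out. Other genes, such as Bcl3, Csf3, Tnf, Ltb, Cxcl1, Cxcl2, Il6 and Ptgs2, were named after their values were seen. Members, lists and rules were chosen with earlier results of these data known. The calculation was tested on simulated data in which only bright genes were changed, by at least 2-fold. That test does not cover dim genes or the smaller differences seen for the members. Python 3.11.15, pandas 2.3.3, scipy 1.17.1 and statsmodels 0.14.6 were used.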

Additional observations from a re-analysis of the deposited data

How the results depend on the processing

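Under 9 alternatives (no rescaling, median centring, quantile normalization, lowess centring with span 0.4, a floor at the 20th percentile, a floor at the 60th, a pseudocount of 16, the mean over probe sets, and no suffixed probe sets) the median log2 ratio of the measured members ran from 0.30 to 0.61. It was highest, 0.61, without suffixed probe sets, where 2 members (Nfkbia and Nfkbiz) were measured. The number at least 2-fold higher was 1, Nfkb2, in place of 0 with median centring and with lowess centring. The number at least 1.5-fold higher was 2 as reported, 1 of 4 measured members at the 60th-percentile floor, 1 without suffixed probe sets, 1 with Nfkb2 left out or taken by its other probe set (both added after the data were seen), and 0 with the mean over probe sets. No member was at least 1.5-fold or 2-fold lower under these alternatives. With the floor at the 20th percentile all 9 were measured, Nfkbie had a log2 ratio of 0.61, Relb 0.33, Tnfaip3 0.21 and Rel -0.06, and 3 members were at least 1.5-fold higher, as were 9.68% of all genes measured at that floor. With the pseudocount these 4 were at 0.36, 0.17, 0.14 and -0.04. The B cell median changed sign with 5 alternatives and the T cell median with 3, up to 0.74 for T cells with the floor at the 60th percentile. That value is of Zap70 alone, the only T cell gene measured at that floor. The mast cell median ran from 0.32 (pseudocount) to 0.89, and was 0.48 without suffixed probe sets. The granulocyte median ran from 0.61 to 1.16 and the Langerhans and dendritic cell median from 0.47 to 1.22, all above 0. The 5 pathway list medians kept their direction under all 9, with the ligands as low as 0.16 at the 20th-percentile floor. The number of NF-kB targets at least 2-fold higher ran from 0 to 9, with 1 at least 2-fold lower at the 20th-percentile floor. The share of all genes past 2-fold was not computed under the alternatives. No paired analysis was possible because each genotype has 1 array. Dim signals limit Rel, Relb, Nfkbie, Tnfaip3 and Nfkb2 most.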
